A study of Mus musculus with 18 samples.

Results

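The testis-specific paralogs D1Pas1, Slc25a31, Rpl10l, Taf7l and Tuba3b and the ubiquitous relatives Ddx3x, Slc25a4, Slc25a5, Rpl10 and Taf7 were examined, which are 10 of the 34244 named genes in the table. They were picked by gene symbol, and the 5 germline genes were picked because their levels in these embryos were already known to be high without Dnmt3b. Their values are therefore given as a description and carry no test, whereas the 5 relatives were tested.

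Whole E11.5 embryos of the FVB strain were compared, with 1 RNA-seq library from each of 9 embryos. Of these, 3 were Dnmt3b+/+, 3 were Dnmt3b-/- with a conventional knockout allele made from mice with a loxP-flanked Dnmt3b (the knockout-labelled embryos), and 3 were Dnmt3bCI/CI, with a knock-in at the same locus designed to remove catalytic activity, of which some may remain. The embryos came from natural matings of heterozygous parents, and only live embryos were used. The CI allele comes from 2 independent lines that the labels do not tell apart. Nothing states whether embryos of a genotype shared a litter, so all p-values measure the spread between these embryos only.

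Dnmt3b is a DNA methyltransferase that sets methylation on the genome after implantation, and promoters of many germline genes are among its known targets. Of the germline genes here, D1Pas1 and Rpl10l are copies of an X-linked parent gene. The X chromosome is silenced in male meiosis, and autosomal copies that act in the testis are thought to supply the product at that time. D1Pas1 encodes a DEAD-box RNA helicase like its parent Ddx3x, and Rpl10l encodes a form of the large ribosomal subunit protein Rpl10. Slc25a31 is the male germ cell ADP/ATP carrier of the inner mitochondrial membrane, a role that Slc25a4 and Slc25a5 fill in somatic tissue. Taf7l is a germ cell counterpart of Taf7, a subunit of the general transcription factor TFIID, and is itself X-linked while its relative is autosomal. Tuba3b encodes an alpha-tubulin of the testis and was given no ubiquitous partner.

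In GENCODE M21 on GRCm38, D1Pas1 (ENSMUSG00000039224) lies at 1:186967416-186970627 on the plus strand and Rpl10l (ENSMUSG00000060499) at 12:66283379-66284401 on the minus strand, each as a single exon. Slc25a31 (ENSMUSG00000069041) has 6 exons at 3:40708855-40726096 on the plus strand, and Tuba3b (ENSMUSG00000067338) has 5 at 6:145615757-145621479 on the plus strand. Taf7l (ENSMUSG00000009596) lies at X:134460118-134476490 on the minus strand. The relatives are Ddx3x at X:13280970-13294052, Slc25a5 at X:36795651-36798807 and Rpl10 at X:74270812-74273135 on the plus strand, and Slc25a4 at 8:46206797-46211284 on the minus strand.

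The 250 bases before the earliest annotated start of each germline gene are shown because all 5 genes were higher in the knockout-labelled embryos and the enzyme that was changed acts on CpG sites. Sequence is from the RefSeq GRCm38 genome on the strand of the gene, and capitals mark CpG sites. The windows are 1:186967166-186967415 for D1Pas1, 3:40708605-40708854 for Slc25a31, 12:66284402-66284651 for Rpl10l, X:134476491-134476740 for Taf7l and 6:145615507-145615756 for Tuba3b.
D1Pas1: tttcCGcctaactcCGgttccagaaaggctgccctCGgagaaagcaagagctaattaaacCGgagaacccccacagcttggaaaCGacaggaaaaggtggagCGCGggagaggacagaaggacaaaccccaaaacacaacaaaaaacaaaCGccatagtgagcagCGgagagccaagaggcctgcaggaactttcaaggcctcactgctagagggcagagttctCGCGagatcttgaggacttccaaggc
Slc25a31: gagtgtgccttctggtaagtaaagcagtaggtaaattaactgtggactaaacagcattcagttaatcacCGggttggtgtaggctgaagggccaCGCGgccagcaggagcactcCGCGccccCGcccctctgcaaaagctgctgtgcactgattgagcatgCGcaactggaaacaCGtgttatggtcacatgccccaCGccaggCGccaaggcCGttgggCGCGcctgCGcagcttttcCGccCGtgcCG
Rpl10l: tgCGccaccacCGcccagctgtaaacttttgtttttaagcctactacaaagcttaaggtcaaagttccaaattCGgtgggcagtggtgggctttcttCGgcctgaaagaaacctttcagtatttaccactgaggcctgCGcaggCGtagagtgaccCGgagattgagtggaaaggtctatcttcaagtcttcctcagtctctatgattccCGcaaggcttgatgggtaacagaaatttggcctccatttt
Taf7l: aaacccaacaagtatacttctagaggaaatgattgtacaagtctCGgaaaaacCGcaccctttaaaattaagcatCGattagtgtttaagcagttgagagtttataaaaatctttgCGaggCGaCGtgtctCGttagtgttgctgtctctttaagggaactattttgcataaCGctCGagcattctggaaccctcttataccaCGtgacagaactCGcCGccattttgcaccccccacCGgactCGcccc
Tuba3b: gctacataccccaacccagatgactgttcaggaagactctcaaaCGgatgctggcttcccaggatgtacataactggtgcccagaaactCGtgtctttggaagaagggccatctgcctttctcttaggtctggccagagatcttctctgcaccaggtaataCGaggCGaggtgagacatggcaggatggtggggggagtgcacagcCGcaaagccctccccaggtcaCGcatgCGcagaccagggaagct

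These windows hold 11 CpG sites for D1Pas1, 17 for Slc25a31, 8 for Rpl10l, 14 for Taf7l and 7 for Tuba3b. Over 32851 promoters of the same length the median was 6, with quartiles at 2 and 16, so 4 of the 5 lie between the median and the upper quartile and Slc25a31 lies above it. The relatives that could be matched overlapped this range, with 18 for Ddx3x, 14 each for Slc25a5 and Rpl10, and 9 for Slc25a4. The E-box CACGTG, searched on both strands, is in the windows of Slc25a31 and Taf7l and in 6.02% of all promoters. The motif TCCCGC, or GCGGGA on the other strand, is in those of D1Pas1, Rpl10l, Slc25a5 and Rpl10 and in 16.9% of all promoters. For Tuba3b and Slc25a4 the starts given by GENCODE and RefSeq lie 206 and 222 bases apart, so that their windows are less certain. Methylation of these sites was not analysed here.

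How well short reads tell a germline gene from its relative depends on their sequence, so the first 90 coding bases of 3 close pairs are shown, with the bases that differ in capitals.
D1Pas1: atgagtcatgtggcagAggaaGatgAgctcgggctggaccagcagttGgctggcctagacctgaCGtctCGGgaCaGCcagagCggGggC
Ddx3x: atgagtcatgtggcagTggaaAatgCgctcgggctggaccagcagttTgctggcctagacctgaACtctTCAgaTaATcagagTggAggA
Rpl10l: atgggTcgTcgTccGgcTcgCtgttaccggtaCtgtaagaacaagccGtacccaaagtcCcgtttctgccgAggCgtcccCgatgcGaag
Rpl10: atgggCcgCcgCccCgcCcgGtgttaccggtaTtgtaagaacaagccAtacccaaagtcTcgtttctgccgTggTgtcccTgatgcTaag
Tuba3b: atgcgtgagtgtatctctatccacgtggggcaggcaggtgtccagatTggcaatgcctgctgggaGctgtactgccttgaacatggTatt
Tuba3a: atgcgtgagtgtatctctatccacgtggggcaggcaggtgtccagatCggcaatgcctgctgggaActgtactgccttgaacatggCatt

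There are 15 differences between D1Pas1 and Ddx3x in this stretch, 13 between Rpl10l and Rpl10, and 3 between Tuba3b and its closest copy Tuba3a. Over the aligned coding sequence, identity was 87.4% for D1Pas1 and Ddx3x, 84.7% for Rpl10l and Rpl10, 66.6% for Slc25a31 and Slc25a4, 66.9% for Slc25a31 and Slc25a5, and 97.0% for Tuba3b and Tuba3a. Of the 150-base windows of each transcript, the length of 1 read, 0 of those in Slc25a31, Rpl10l or Taf7l match another annotated transcript exactly. In D1Pas1 1.3% do, all with the gene model Gm37912 and none with Ddx3x, and in Tuba3b 2.2% do, all with Tuba3a. The relative with the most shared sequence is Rpl10, in which 41.1% of windows match the pseudogene Rpl10-ps1. With windows of 75 bases, 53.0% of those in Rpl10, 27.9% in Slc25a5, 18.9% in Tuba3b and 19.9% in Tuba3a also match another transcript. The levels of Rpl10, Tuba3a, Tuba3b and Slc25a5 are therefore uncertain to that extent, and Taf7 was not examined in this way.

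Library totals behind the normalization ranged from 38451729 to 49808777 reads, and 10719 to 11571 genes had no reads in a library. At this depth 3 reads, used as the floor of detection, correspond to 0.0188 to 0.0243 FPKM for D1Pas1 and 0.0589 to 0.0763 FPKM for Rpl10l. Over the whole gene, Dnmt3b stood at 2.25, 1.62 and 2.04 FPKM in Dnmt3b+/+ embryos, 2.45, 3.12 and 3.33 FPKM in the knockout-labelled embryos and 2.06, 1.98 and 2.32 FPKM in Dnmt3bCI/CI embryos. It was not lower but higher in the knockout-labelled embryos, without overlap with the other groups. The log2 fold change was 0.57 against Dnmt3b+/+ (limma adjusted p = 0.0248) and 0.46 against Dnmt3bCI/CI (adjusted p = 0.0488). A single value per gene does not reveal a deletion of some exons, so these embryos are named here by their label. Dnmt3b+/+ replicate 2 stands apart, with 0.103 FPKM of the liver gene Alb where the other 8 embryos had 9.67 to 85.7. Reads of the Y-linked gene Ddx3y were present in 7 embryos and absent from Dnmt3b+/+ replicate 1 and Dnmt3bCI/CI replicate 3, which had 63.2 and 45.3 FPKM of Xist, the RNA that silences an X chromosome in female cells. The other 7 had 0.0661 FPKM or less of Xist. All 3 knockout-labelled embryos carried Ddx3y reads, so sex is not balanced between the genotypes.

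All 5 germline paralogs had 14 reads or fewer in every Dnmt3b+/+ embryo and 48 or more in every knockout-labelled embryo. In Dnmt3bCI/CI embryos the 5 differed among themselves, with Taf7l and Slc25a31 clearly present, D1Pas1 and Tuba3b faint and Rpl10l without reads. Every germline paralog had its 3 knockout-labelled embryos above the 3 Dnmt3b+/+ embryos and above the 3 Dnmt3bCI/CI embryos. Over the 19397 tested genes this held for 15.1% and 16.7%, and since the germline genes were picked for these levels, nothing is read from their count. For 4 of the 5, all but Rpl10l, the 3 Dnmt3bCI/CI embryos also lay above the 3 Dnmt3b+/+ embryos, as in 7.53% of the tested genes. These are whole embryos, in which fewer cells of a type and less RNA per cell cannot be told apart.

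Among the germline genes, D1Pas1, the helicase, had 0, 5 and 1 reads in Dnmt3b+/+ embryos, 318, 279 and 246 in the knockout-labelled embryos and 20, 28 and 6 in Dnmt3bCI/CI embryos. On the FPKM scale, which is per length, its level was 2.48, 2.04 and 1.89 in the knockout-labelled embryos and 0.139, 0.201 and 0.0486 in Dnmt3bCI/CI embryos. The 3 groups did not overlap, and Dnmt3bCI/CI replicate 3 lay 4.15 times below the highest of its group. This replicate is the Dnmt3bCI/CI embryo without Ddx3y reads. From the reads, D1Pas1 was 153-fold higher in the knockout-labelled embryos than in Dnmt3b+/+ (95% interval 69.9 to 417) and 9.50-fold higher in Dnmt3bCI/CI than in Dnmt3b+/+ (4.09 to 27.0). Replicate 2 held 5 of the 6 Dnmt3b+/+ reads, and without it these ratios were 575 (103 to 22740) and 35.8 (6.15 to 1438). Here and below, such intervals are exact, cover counting error only and rest on the reads of 3 embryos added together.

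The ADP/ATP carrier Slc25a31 was the germline paralog with the highest mean in the knockout-labelled embryos, at 14.2, 13.3 and 12.2 FPKM. It stood at 4.14, 3.99 and 3.23 FPKM in Dnmt3bCI/CI embryos and at 0.0947, 0.132 and 0.0839 FPKM in Dnmt3b+/+ embryos, where 9, 14 and 7 reads were counted. It is thus the 1 germline gene with more than 3 reads in every Dnmt3b+/+ library. The coefficient of variation within genotypes was 7.60% to 24.4%, and each genotype was separate from the other two. The ratio from reads was 125 (87.5 to 186) for the knockout-labelled embryos and 36.2 (25.2 to 53.9) for Dnmt3bCI/CI, both over Dnmt3b+/+.

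For Rpl10l, the ribosomal protein, 48, 53 and 52 reads were counted in the knockout-labelled embryos, which is 1.18, 1.22 and 1.25 FPKM. Dnmt3b+/+ embryos had 0, 0 and 1 reads, and Dnmt3bCI/CI embryos had 0 reads in each of 3 libraries. The knockout-labelled embryos differed little from one another, with a coefficient of variation of 3.18%, which is below the 14.0% that counting alone gives for such read numbers. Against Dnmt3bCI/CI, Rpl10l was at least 52.5-fold higher in the knockout-labelled embryos, taking a floor of 3 reads over the group. Against the single Dnmt3b+/+ read the ratio was 166, with an interval of 29.4 to 6613, and 104 (18.5 to 4149) without Dnmt3b+/+ replicate 2. No fold is given between Dnmt3bCI/CI and Dnmt3b+/+, both having fewer than 3 reads in all.

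Taf7l, the TFIID subunit, was the germline paralog with the highest level in Dnmt3bCI/CI embryos relative to the knockout-labelled embryos. It had 3, 3 and 2 reads in Dnmt3b+/+ embryos, 684, 465 and 591 in the knockout-labelled embryos and 401, 348 and 335 in Dnmt3bCI/CI embryos. These are 7.64, 4.87 and 6.49 FPKM in the knockout-labelled embryos and 3.98, 3.58 and 3.88 FPKM in Dnmt3bCI/CI embryos, so the groups did not overlap. The ratio from reads was 236 (120 to 549) for the knockout-labelled embryos over Dnmt3b+/+ and 143 (72.3 to 332) for Dnmt3bCI/CI over Dnmt3b+/+. Taf7l is X-linked, and its level in the Dnmt3bCI/CI embryo without Ddx3y reads, replicate 3, lay between those of the other 2. For Tuba3b this embryo also lay in between, but it had the lowest Dnmt3bCI/CI value of D1Pas1 (0.0486 FPKM) and Slc25a31 (3.23 FPKM). A difference by sex was not tested for the germline genes.

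Tuba3b, the tubulin, differed by 121-fold between the 2 mutant genotypes (81.2 to 189), from reads. It had 2, 1 and 0 reads in Dnmt3b+/+ embryos, 794, 1229 and 797 in the knockout-labelled embryos and 6, 10 and 8 in Dnmt3bCI/CI embryos. In FPKM, the knockout-labelled embryos stood at 11.2, 16.3 and 11.1 and the Dnmt3bCI/CI embryos at 0.0753, 0.130 and 0.117. The ratio over the 3 Dnmt3b+/+ reads was 1022 in the knockout-labelled embryos, with an interval of 349 to 4959, and 8.44 in Dnmt3bCI/CI embryos, with an interval of 2.56 to 43.8. Its near-identical copy Tuba3a showed the same order of genotypes, with 5.73, 10.7 and 8.33 FPKM in the knockout-labelled embryos, 0.310, 0.490 and 0.207 FPKM in Dnmt3bCI/CI and 0.193, 0.0665 and 0.0676 FPKM in Dnmt3b+/+ embryos. For Tuba3a the difference between Dnmt3bCI/CI and Dnmt3b+/+ did not pass (log2 fold change 1.06, limma adjusted p = 0.766). In each of the 3 knockout-labelled embryos Tuba3b was less than 2-fold above Tuba3a, and reads that match both copies could move between them. Without Dnmt3b+/+ replicate 2, the ratio of the knockout-labelled embryos over Dnmt3b+/+ was 147 for Slc25a31, 237 for Taf7l and 962 for Tuba3b, close to the values with it.

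**Figure D1:**
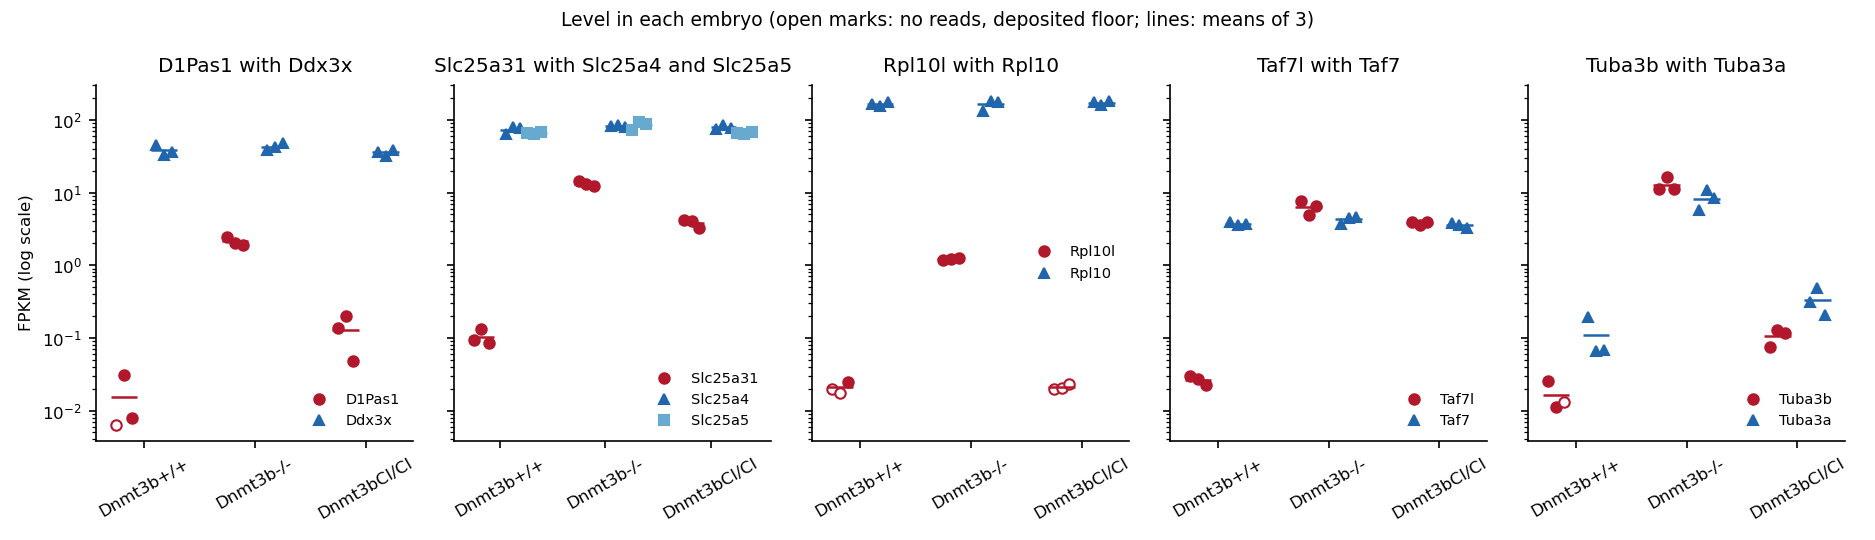
Level of each germline paralog (red circles) and its relative or, for Tuba3b, its copy Tuba3a (blue) in each of 9 embryos, in FPKM on a log axis, by genotype. Open marks are libraries without reads and lines are means of 3 embryos. The red circles go from 0.132 FPKM or less in Dnmt3b+/+ to 1.18 FPKM or more in the knockout-labelled embryos, while the genotype means of the blue relatives in the first 4 panels lie within 2-fold of one another.

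Ordered by mean FPKM in the knockout-labelled embryos, the germline paralogs were Slc25a31 (13.2 ± 1.00, SD, n = 3), Tuba3b (12.9 ± 2.97), Taf7l (6.33 ± 1.39), D1Pas1 (2.14 ± 0.308) and Rpl10l (1.22 ± 0.0386). Slc25a31 and Tuba3b overlapped, and the other neighbours in this order did not. In Dnmt3bCI/CI embryos the order was Taf7l (3.81 ± 0.207) and Slc25a31 (3.79 ± 0.493), which overlapped, then D1Pas1 (0.130 ± 0.0768) and Tuba3b (0.108 ± 0.0287), which overlapped as well, and last Rpl10l without reads. The level in Dnmt3bCI/CI as a percentage of that in the knockout-labelled embryos, from reads, was 60.5% for Taf7l (56.0 to 65.3), 28.9% for Slc25a31 (26.9 to 31.0), 6.22% for D1Pas1 (4.63 to 8.19), 0.826% for Tuba3b (0.528 to 1.23) and at most 1.90% for Rpl10l. The 5 germline genes were thus spread over a wide range in Dnmt3bCI/CI embryos. Taf7l and Slc25a31, which have the higher percentages, are also the 2 whose promoter windows hold CACGTG and the most CpG sites of the 5. This only describes 5 genes that were picked for their levels, and a link between these windows and the levels was not tested.

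The genes whose pattern over the 9 embryos was most like each germline paralog were found by the root mean square difference of log2(FPKM + 0.1), after each gene's own mean was removed. For D1Pas1 these were Gm9 (0.37), Mov10l1 (0.40) and Dazl (0.49). Slc25a31 was closest to 8030474K03Rik (0.23), AU022751 (0.34) and Mael (0.42), and Taf7l to Gm4779 (0.33), 8030474K03Rik (0.34) and Mael (0.65). For Rpl10l the closest were Sohlh2 (0.26), Gm9 (0.35) and Fos (0.38). The copy Tuba3a (0.81) was closest to Tuba3b, ahead of Gm9 (1.26) and Dazl (1.27). Among the germline paralogs themselves, Slc25a31 and Taf7l (0.49) and D1Pas1 and Rpl10l (0.51) were near one another, and Tuba3b was at least 1.25 from the other 4.

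The somatic relatives were expressed in all 9 embryos, at 3.30 FPKM or more. None of the 5 was called in any comparison, a call being an adjusted p under 0.05 with at least a 2-fold change in limma. In the knockout-labelled embryos against Dnmt3b+/+ embryos, 4.45% of the 19397 tested genes were called. The share was 0.129% in Dnmt3bCI/CI against Dnmt3b+/+ embryos and 5.42% in the knockout-labelled embryos against Dnmt3bCI/CI embryos. Without Dnmt3b+/+ replicate 2 the count was also 0 of 5 in each comparison. At an unadjusted p under 0.05 there was 1 of 5 in the first comparison, 0 in the second and 2 in the third, beside 40.0%, 5.25% and 41.9% of all tested genes. The median log2 difference of the relatives was 0.18, 0.01 and 0.25 in these comparisons, beside -0.07, 0.02 and -0.08 over all tested genes.

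The largest difference was that of Slc25a5, the X-linked carrier, with 73.1, 93.0 and 87.4 FPKM in the knockout-labelled embryos against 65.1, 64.4 and 68.0 FPKM in Dnmt3b+/+ and 66.3, 64.3 and 68.6 FPKM in Dnmt3bCI/CI embryos. Its 3 knockout-labelled embryos lay above all 6 other embryos. The log2 fold change was 0.35 against Dnmt3b+/+ (95% interval 0.15 to 0.55, limma adjusted p = 0.0209) and 0.34 against Dnmt3bCI/CI (0.14 to 0.54, adjusted p = 0.0219), a rise that passed the p threshold and stayed well below 2-fold. At any fold, 9.41% of tested genes passed upward in the first of these and 9.7% in the other. The adjusted p against Dnmt3b+/+ was 0.0573 without Dnmt3b+/+ replicate 2, 0.0680 and 0.0708 without replicates 2 and 3 of the knockout-labelled embryos, 0.0801 in the 7 embryos with Ddx3y reads, 0.0622 after quantile normalization and 0.0628 with only these 2 genotypes in the fit. Against Dnmt3bCI/CI it was 0.0517 to 0.0756 in 7 of 20 alternatives, among them leaving out any 1 Dnmt3bCI/CI embryo or replicate 2 or 3 of the knockout-labelled embryos. The other somatic carrier, Slc25a4, had 81.8, 84.2 and 79.5 FPKM in the knockout-labelled embryos, 64.2, 79.7 and 76.3 in Dnmt3b+/+ and 76.1, 85.9 and 78.4 in Dnmt3bCI/CI embryos. The knockout-labelled embryos overlapped both other groups, with a log2 fold change against Dnmt3b+/+ of 0.16 (-0.04 to 0.36, limma adjusted p = 0.206).

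Ddx3x, the helicase parent of D1Pas1, had 45.2, 32.9 and 36.1 FPKM in Dnmt3b+/+, 38.3, 42.7 and 47.6 FPKM in the knockout-labelled embryos and 36.7, 32.3 and 39.0 FPKM in Dnmt3bCI/CI embryos. The 2 embryos without Ddx3y reads held the highest value of their genotype, and Ddx3x is known to escape X inactivation in part. The log2 fold change of the knockout-labelled embryos against Dnmt3b+/+ was 0.18 (-0.12 to 0.48, limma adjusted p = 0.342) over all embryos and 0.31 (adjusted p = 0.104) over the 7 embryos with Ddx3y reads. Within these 7, the knockout-labelled embryos lay above the other 4. Ddx3y itself had 3.77 to 4.37 FPKM in the knockout-labelled embryos and 4.0 to 5.06 FPKM in the 4 other embryos that carry it.

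Rpl10, the ribosomal parent of Rpl10l, had 167, 157 and 177 FPKM in Dnmt3b+/+, 133, 183 and 173 in the knockout-labelled embryos and 176, 159 and 183 in Dnmt3bCI/CI embryos. The groups overlapped, and the log2 fold change of the knockout-labelled embryos against Dnmt3b+/+ was -0.05 (-0.33 to 0.24, limma adjusted p = 0.802). Its sign rested on replicate 1 of the knockout-labelled embryos, without which it was 0.10.

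Taf7, at 18:37640491-37644204 on the minus strand, was the least abundant relative, with 3.95, 3.62 and 3.64 FPKM in Dnmt3b+/+, 3.71, 4.45 and 4.62 FPKM in the knockout-labelled embryos and 3.87, 3.53 and 3.30 FPKM in Dnmt3bCI/CI embryos. The groups overlapped, with a log2 fold change of 0.18 (-0.04 to 0.40, limma adjusted p = 0.207) against Dnmt3b+/+ and 0.25 (0.02 to 0.47, adjusted p = 0.0910) against Dnmt3bCI/CI. In Dnmt3bCI/CI against Dnmt3b+/+ embryos, all 5 relatives had log2 fold changes between -0.07 and 0.13 with adjusted p of 0.949 or more, and the 95% intervals of all 5 lay between -0.37 and 0.33.

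**Figure D2:**
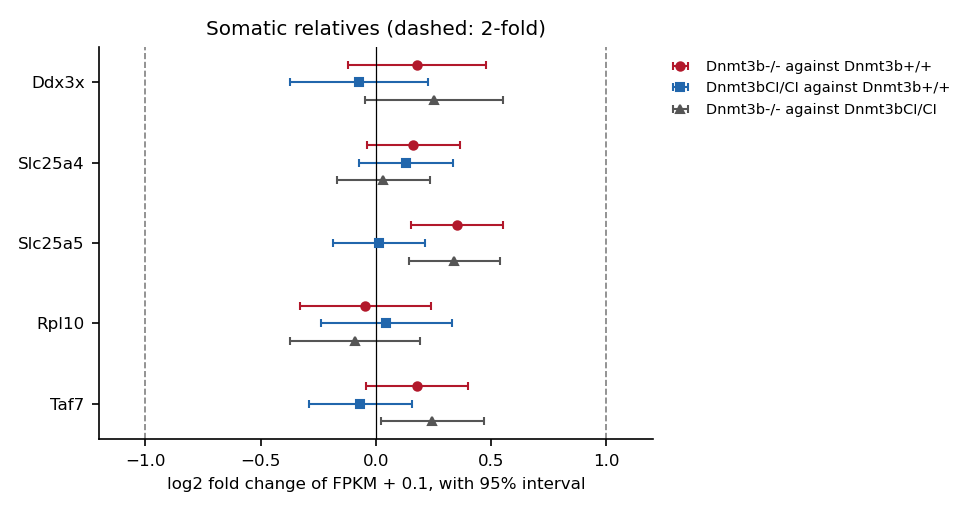
Log2 fold change of log2(FPKM + 0.1) for the 5 somatic relatives in 3 comparisons, with 95% intervals from limma on 9 embryos. Dashed lines mark a 2-fold change. All 15 intervals lie inside the dashed lines, and those that lie above 0 are the intervals of Slc25a5 in both comparisons with the knockout-labelled embryos and of Taf7 in the knockout-labelled embryos against Dnmt3bCI/CI.

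How much of each protein family's RNA came from the germline copy was expressed as the share of the germline paralog in the summed FPKM of germline and somatic genes. For Taf7l this share was 0.751%, 0.736% and 0.621% in Dnmt3b+/+ embryos, 67.3%, 52.3% and 58.4% in the knockout-labelled embryos and 50.7%, 50.3% and 54.0% in Dnmt3bCI/CI embryos. Taf7l therefore exceeded Taf7 in all 6 mutant embryos, and the knockout-labelled embryos overlapped the Dnmt3bCI/CI embryos on this measure. For Slc25a31 the share of the 3 carriers was 8.39%, 6.96% and 6.80% in the knockout-labelled embryos, 2.83%, 2.59% and 2.15% in Dnmt3bCI/CI and 0.0733%, 0.0915% and 0.0581% in Dnmt3b+/+ embryos. D1Pas1 reached 6.09%, 4.56% and 3.81% of the sum with Ddx3x in the knockout-labelled embryos and 0.377%, 0.620% and 0.125% in Dnmt3bCI/CI embryos. For Rpl10l the share was 0.880%, 0.660% and 0.718% in the knockout-labelled embryos and 0 in Dnmt3bCI/CI embryos, where 3 reads would have been at most 0.0426%. A high share of Taf7l goes with the low level of Taf7, and a low share of Rpl10l with the high level of Rpl10.

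**Figure D3:**
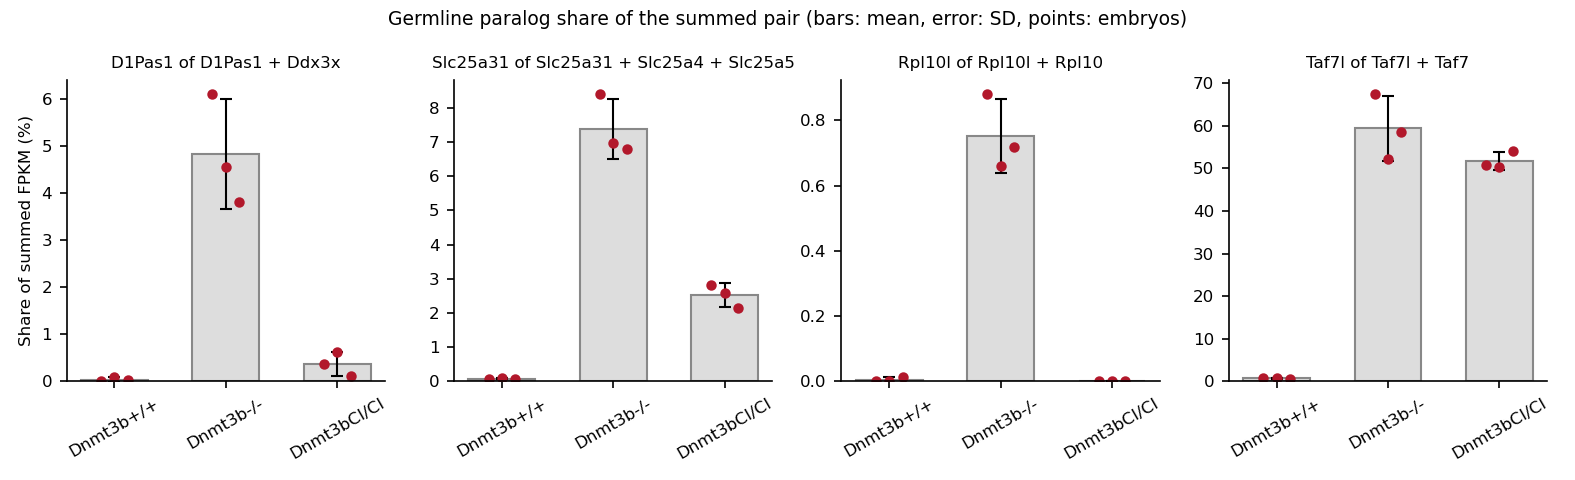
Share of the germline paralog in the summed FPKM of the germline gene and its relatives, in percent, by genotype, each panel with its own axis from 0. Bars are means, error bars are SDs of 3 embryos and points are embryos. Taf7l made up 50.3% or more in every mutant embryo, while Rpl10l stayed below 1%.

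Other testis-expressed genes with a ubiquitous relative were taken as a list of 36 pairs from general knowledge, all of which were in the table. Of the 36 germline genes 20 passed the filter on low values, 5 of them only through the knockout-labelled embryos, so their calls are counted in the limma fit without a filter. In the knockout-labelled embryos against Dnmt3b+/+ embryos that fit called 7 of the 36 higher and 0 lower, beside 0.569% of all 34244 genes called higher. These 7 include Tuba3a, the near-identical copy of the member Tuba3b. The list was also drawn up with earlier results of these data known, so this count is not independent of how the members were picked. The fit with the filter called the same 7, of which 3, Cox8c, Cox7b2 and Pdha2, had passed only through the knockout-labelled embryos. Of the 36 somatic partners 0 were called in any of the 3 comparisons in limma, beside 4.45%, 0.129% and 5.42% of tested genes, although at an adjusted p under 0.05 and any fold 12 were higher and 2 lower in the knockout-labelled embryos than in Dnmt3b+/+ embryos, beside 9.41% and 16.4% of all genes. At an unadjusted p under 0.05 these were 17 and 2, in Dnmt3bCI/CI against Dnmt3b+/+ embryos 3 and 1, and in the knockout-labelled embryos against Dnmt3bCI/CI embryos 14 and 2, beside 40.0%, 5.25% and 41.9% of tested genes in either direction. The median log2 difference of the knockout-labelled embryos against Dnmt3b+/+ was 0.17 over the partners, beside -0.07 over all tested genes. Over the 36 germline genes it was 0.22, but 16 of these lie below the filter, so that it is not comparable with the tested genes.

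The called genes were Tuba3a, with a log2 fold change of 5.33, Cyct, the testis cytochrome c (4.32), Rpl39l, a ribosomal protein (3.30), the cytochrome oxidase subunits Cox8c (1.96) and Cox7b2 (1.17), Psma8, a proteasome subunit of spermatocytes (1.67), and Pdha2, a subunit of pyruvate dehydrogenase (1.50), with limma adjusted p of 0.00681 or less without the filter. Cyct had 58, 96 and 72 reads in the knockout-labelled embryos, 23, 16 and 8 in Dnmt3bCI/CI and 1, 2 and 0 in Dnmt3b+/+ embryos. Rpl39l had 109, 164 and 159 reads in the knockout-labelled embryos, 30, 23 and 30 in Dnmt3bCI/CI and 8, 17 and 13 in Dnmt3b+/+ embryos. Both thus had the same order of genotypes as D1Pas1, Slc25a31, Taf7l and Tuba3b. For Rpl39l, however, Dnmt3bCI/CI against Dnmt3b+/+ was not called (log2 fold change 1.04, limma adjusted p = 0.401). Pdha2, with 21, 18 and 21 reads, and Cox8c, with 7, 13 and 7, had reads in the knockout-labelled embryos but 0 in each library of the other 2 genotypes, as Rpl10l nearly did. Cox7b2 had only 5, 5 and 4 reads in the knockout-labelled embryos, 3, 1 and 2 in Dnmt3bCI/CI and 0 in each Dnmt3b+/+ library. Its call therefore rests on reads close to the floor of detection.

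Cyct was the 1 gene of the 36 called in Dnmt3bCI/CI against Dnmt3b+/+ embryos, at a log2 fold change of 2.13 (limma adjusted p = 0.0234), beside 0.129% of tested genes. This call was lost under 11 of 20 alternatives, among them leaving out any 1 Dnmt3b+/+ embryo (adjusted p 0.0732 to 0.172) and the fit without a filter (adjusted p = 0.0763). In the knockout-labelled embryos against Dnmt3bCI/CI embryos 5 of the 36 were called higher without the filter, beside 0.549% of all genes, namely Tuba3a (4.27), Rpl39l (2.27), Cyct (2.19), Cox8c (1.94) and Pdha2 (1.49). With the filter these were the same 5, Cox8c and Pdha2 having passed it only through the knockout-labelled embryos. With the filter and without Dnmt3b+/+ replicate 2 the calls in the 3 comparisons were 8, 0 and 5.

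The 6 genes of the list with the highest levels among those not called were present in all genotypes. Cox6b2, a cytochrome oxidase subunit, had 13.2, 14.9 and 12.8 FPKM in the knockout-labelled embryos against 8.35, 5.11 and 7.34 FPKM in Dnmt3b+/+ embryos, and its log2 fold change of 0.99 (limma adjusted p = 0.00454) was just short of 2-fold. It was not called in 13 of 20 alternatives and was called in the others. Gapdhs, the sperm glyceraldehyde-3-phosphate dehydrogenase, had 1.15, 0.672 and 0.766 FPKM against 1.31, 1.51 and 1.22 FPKM and a log2 fold change of -0.61, which did not pass without the filter (adjusted p = 0.0764, against 0.0374 with it). Hspa1l, a heat shock protein of the Hsp70 family that is not among these 6 and is named after its values were seen, was lower, with 0.477, 0.419 and 0.249 FPKM against 0.634, 0.893 and 0.722 FPKM and a log2 fold change of -0.84 (adjusted p = 0.0475 without the filter). It did not pass without Dnmt3b+/+ replicate 2 or 3 (adjusted p = 0.0573 and 0.0533). Cstf2t (0.10), Tbpl1 (0.12), Utp14b (0.11) and Clgn (0.33) did not pass. Of the 16 genes below the filter, Pgk2, the testis phosphoglycerate kinase, had 0 reads in all 9 libraries, as had Tktl2, Pdilt, Capza3 and Kif2b, which are named after their values were seen.

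**Figure D4:**
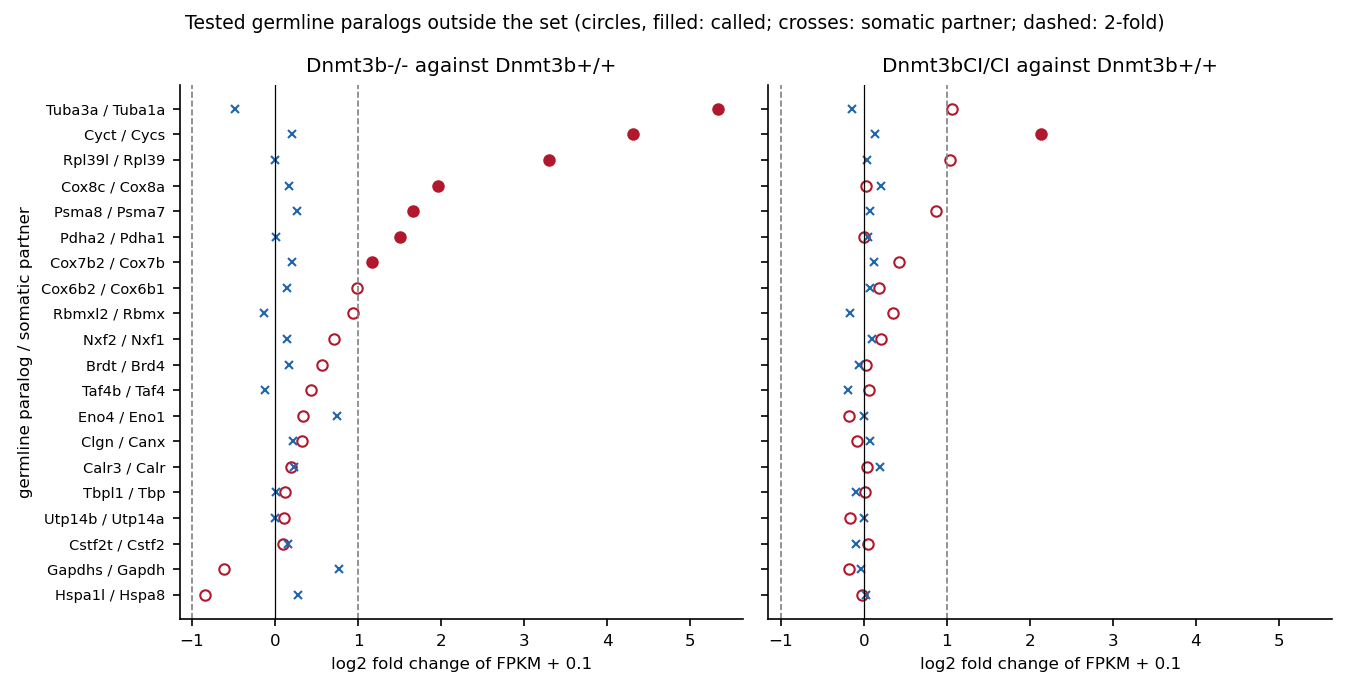
Log2 fold change of log2(FPKM + 0.1) of the 20 tested germline paralogs of the list (circles) and their somatic partners (crosses) in 2 comparisons with Dnmt3b+/+ embryos, which share their 3 control embryos. Filled circles were called and dashed lines mark a 2-fold change. On the left 7 circles are filled and reach 5.33 for Tuba3a, those of Cox8c, Cox7b2 and Pdha2 having entered only through the knockout-labelled embryos, on the right 1 is, and all crosses lie inside the dashed lines.

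Of the family neighbours of the germline paralogs, 8 of 9 were in the table. Ddx4, the germ cell DEAD-box helicase, had 1.78, 1.94 and 1.87 FPKM in the knockout-labelled embryos, 0.599, 0.667 and 0.440 FPKM in Dnmt3bCI/CI and 0.0966, 0.0266 and 0.0677 FPKM in Dnmt3b+/+ embryos. It was called in all 3 comparisons, with log2 fold changes of 3.61 (limma adjusted p = 2.36e-05) and 2.04 (adjusted p = 0.00331) against Dnmt3b+/+ and 1.57 (adjusted p = 0.00123) between the mutants. Of the alpha-tubulins, only Tuba3a was called among those measured beside Tuba3b, in the comparisons with the knockout-labelled embryos but not in Dnmt3bCI/CI against Dnmt3b+/+. Tuba1b had a log2 fold change of 0.38 in the knockout-labelled embryos against Dnmt3b+/+ (adjusted p = 0.0210), which did not pass in 9 of 20 alternatives (0.0501 to 0.115), whereas Tuba1a (-0.48), Tuba1c (0.47), Tuba4a (-0.53) and Tuba8 (0.00) did not pass. Tuba1a and Tuba1c had their highest and lowest Dnmt3b+/+ values in replicate 2, with 913 and 22.4 FPKM.

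Markers of cells that could carry these transcripts were read beside them, and those named were chosen after their values were seen. The 10 markers of primordial germ cells summed to 12.3 to 14.9 FPKM in Dnmt3b+/+, 10.9 to 14.7 FPKM in the knockout-labelled embryos and 12.1 to 17.4 FPKM in Dnmt3bCI/CI embryos. Ifitm3, Kit and Tfap2c (means 5.76, 2.80 and 2.52 FPKM in Dnmt3b+/+) carried most of this sum. In the knockout-labelled embryos Dppa3 (0.0349 against 0.106), Pou5f1 (0.0474 against 0.128) and Utf1 (0.121 against 0.336) had lower means than in Dnmt3b+/+, with overlap. Of the rest, Dnd1, Tfap2c and Prdm14 had higher means. The median log2 fold change of the 9 tested was -0.32 against Dnmt3b+/+ and -0.54 against Dnmt3bCI/CI, beside -0.07 and -0.08 over all tested genes. None of the 9 that were tested was called in the knockout-labelled embryos against Dnmt3b+/+ embryos in limma, beside 1.07% of tested genes called higher and 3.38% called lower, with 3 of 9 at an unadjusted p under 0.05 beside 40.0% of tested genes, and Prdm14 had 0 to 3 reads in every library. Kit had a log2 fold change of -0.32 (limma adjusted p = 0.0197), which did not pass in 5 of 20 alternatives (0.0507 to 0.126). Dnd1 had one of 0.66 (adjusted p = 0.0265), which did not pass in 5 of 19 (0.0570 to 0.0900), and Nanos3 (-0.60, adjusted p = 0.0675) did not pass. Against Dnmt3bCI/CI embryos 1 of the 9 was called higher, beside 1.1% of tested genes, and 0 lower, while at an unadjusted p under 0.05 there were 2 higher and 4 lower, beside 41.9% of tested genes in either direction. Kit was lower there (-0.39, limma adjusted p = 0.00838), which did not pass in 1 of 20 alternatives. The called gene was Tfap2c, with 2.15, 3.34 and 4.57 FPKM against 1.66, 0.502 and 1.81 FPKM (1.39, limma adjusted p = 0.0422), a call lost in 13 of 20 alternatives. Of 10 markers of spermatocytes and spermatids, Prm2, Acrv1, Odf1, Akap4 and Pgk2 had no reads in the knockout-labelled embryos, and the summed level was 0.715 to 1.33 FPKM there, 0.386 to 0.622 FPKM in Dnmt3b+/+ and 0.521 to 1.01 FPKM in Dnmt3bCI/CI embryos, which overlapped both other groups. Of the 2 that were tested, Spaca1 was called higher (1.89, limma adjusted p = 0.00243). Pgk2 also stands in the list of testis-specific paralogs. In a list of 10 genes of blood, liver, nerve, heart, cartilage and muscle, 1 was called higher and 1 lower in the knockout-labelled embryos against Dnmt3b+/+. The one called higher, the embryonic globin Hba-x, lay above all 3 Dnmt3b+/+ embryos in each of the 3 (1.79, limma adjusted p = 0.0180), a call lost in 4 of 20 alternatives (0.0535 to 0.0784), among them those without Dnmt3b+/+ replicate 3 or replicate 3 of the knockout-labelled embryos. The one called lower, the muscle factor Myog, overlapped between the groups (-1.25, adjusted p = 0.0405), a call lost in 14 of 20 alternatives (0.0515 to 0.134), among them leaving out any 1 Dnmt3b+/+ or Dnmt3bCI/CI embryo. Against Dnmt3bCI/CI, Hba-x was called higher (2.07, adjusted p = 0.00934) in each of 20 alternatives, and Myog was called lower without overlap (-1.68, adjusted p = 0.0128), a call lost in 1 of 20. The cartilage collagen Col2a1 had a log2 fold change of -0.78 against Dnmt3b+/+ (adjusted p = 0.0297), which did not pass in 7 of 20 alternatives, and was called lower against Dnmt3bCI/CI (-1.05, adjusted p = 0.00878), a call lost in 2 of 20. The part of these differences in the levels of the paralogs was not tested.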

How the data were processed

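RNA-seq of 9 whole embryos was analysed. Per the study's methods, the authors aligned trimmed paired-end reads to mm10 with STAR, kept alignments with a mapping quality of at least 50 and used SeqMonk to quantify genes. The authors deposited values in FPKM per gene and embryo. Read counting, strand and annotation release are not given in the sources used here. Values are worth whole reads for 91.6% of genes (within 0.02 reads) given exon lengths of GENCODE M21, with genes without reads held at a floor worth 0.9 reads, and reads were worked back on this basis. The reads served for depth and ratios only.

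Genes with at least 0.1 FPKM in 3 of 9 embryos (19397) entered limma 3.58.1 (R 4.3.3) as log2(FPKM + 0.1), with a variance trend and the 3 genotypes in 1 fit, and Benjamini-Hochberg adjustment over all tested genes. The authors' DESeq2 was not run on FPKM. Fold changes on this scale understate changes of low genes. In simulated data of 19397 genes, 96.0% of 200 planted genes (log2 change of 2) were called and 0 others. These data had independent normal noise and no other difference between groups, so they do not measure false calls among the real embryos.

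The members and lists were chosen with earlier results of these data known. Named genes are the members, family neighbours, list genes called in any comparison or, up to 6 more, highest in level, the 3 genes nearest in pattern to each germline paralog, and Dnmt3b. Promoters were read from RefSeq tables and the GRCm38 genome. Alternatives covered pseudocount, filter, scaling, model, single embryos left out and, added after seeing the data, genes without reads set to 0, only the 7 embryos with Ddx3y reads, and read ratios without Dnmt3b+/+ replicate 2. Bisulfite sequencing was not analysed here.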

Additional observations from a re-analysis of the deposited data

How the results depend on the processing

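The count of called somatic relatives was 0 of 5 in all 3 comparisons under every alternative run. Among the 36 testis-specific paralogs, the 7 called in the knockout-labelled embryos against Dnmt3b+/+ became 3 with a pseudocount of 1 FPKM or a filter of 1 FPKM, and the 5 called against Dnmt3bCI/CI became 3 under the same 2 settings. Leaving out 1 embryo gave 7 to 9 calls for the first and 5 each time for the second. The 1 call in Dnmt3bCI/CI against Dnmt3b+/+ became 0 with a pseudocount of 1 FPKM, no filter, only the 2 genotypes compared or genes without reads set to 0, and 0 to 1 when 1 embryo was left out. All called genes numbered 863 (208 higher, 655 lower), 25 and 1051 (213 higher, 838 lower). With a pseudocount of 1 FPKM they were 193, 8 and 242, with a filter of 1 FPKM 484, 19 and 597, and in the 7 embryos with Ddx3y reads 919, 15 and 864. Leaving out 1 embryo gave 614 to 1427, 18 to 26 and 751 to 1604, the highest numbers, 1427 and 1604, being those without replicate 1 of the knockout-labelled embryos. Quantile normalization moved the split to 272 higher and 392 lower for the first comparison and 330 and 495 for the third. Scalings shifted the median log2 difference of all genes by less than 0.1, except quantile normalization in the third comparison, which moved it from -0.0783 to 0.0341.

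Values near 0 changed sign under some alternatives. For the knockout-labelled embryos, Rpl10 ranged from -0.14 to 0.096 against Dnmt3b+/+ and from -0.18 to 0.051 against Dnmt3bCI/CI when 1 embryo was left out, and Slc25a4 against Dnmt3bCI/CI from -0.00367 to 0.084, with -0.093 after quantile normalization. In Dnmt3bCI/CI against Dnmt3b+/+, leaving out 1 embryo gave -0.17 to 0.058 for Ddx3x, -0.011 to 0.036 for Slc25a5, -0.000777 to 0.013 for Pdha2 and -0.00298 to 0.050 for Cox8c. In the same comparison quantile normalization gave -0.036 for Rpl10, -0.062 for Pdha2 and -0.056 for Cox8c, median-of-ratios scaling gave -0.00487 for Slc25a5, and the 7 embryos with Ddx3y reads gave -0.019 for Slc25a5, 0.026 for Taf7, -0.000438 for Pdha2 and -0.000985 for Cox8c. None of these was called, and the cause was not tested.

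Mean shares of the germline paralog kept their values under median-of-ratios scaling, which cancels within a library. Leaving out 1 embryo, in Dnmt3b+/+, in the knockout-labelled embryos and in Dnmt3bCI/CI, the mean share ranged from 0.0110% to 0.0585%, 4.19% to 5.33% and 0.251% to 0.498% for D1Pas1, from 0.0657% to 0.0824%, 6.88% to 7.67% and 2.37% to 2.71% for Slc25a31, from 0% to 0.00704%, 0.689% to 0.799% and 0% to 0% for Rpl10l, and from 0.678% to 0.744%, 55.4% to 62.9% and 50.5% to 52.4% for Taf7l. The replicate numbers did not pair the embryos, with a mean correlation of -0.0865 for same-numbered embryos of different genotypes and 0.0478 for others. With a replicate block, 738, 17 and 926 genes were called, 7, 0 and 5 of the 36 paralogs, and 0 somatic relatives. The log2 differences of the germline paralogs depend on the pseudocount, from 1.12 to 5.32 for Rpl10l and from 3.75 to 8.94 for Tuba3b in the knockout-labelled embryos against Dnmt3b+/+.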
